A study of Homo sapiens with 4 samples.

Results

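The interferon regulatory factors (IRFs) were followed on arrays of MCF10A.B2 cells with and without a shRNA against PAK1. The genes were taken by name from the array design, as IRF1, IRF2, IRF3, IRF4, IRF5, IRF7, IRF8 and IRF9. These 8 genes had 9 of the 34127 probes on the array, with 2 probes for IRF3 and 1 for each of the others, and each probe was spotted once. In PAK1 shRNA cells, IRF7, IRF9 and IRF1 rose by more than 2-fold, IRF2 rose by 2.45-fold with a size that moved with the processing, IRF3 rose by 1.53-fold, IRF5 fell to 76.1% of control, and IRF4 and IRF8 were not well above background in either group.

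The control group was 2 samples of MCF10A.B2 cells that the labels call PAK1 wild type, and the PAK1 shRNA group was 2 samples of the same line carrying a shRNA that targets PAK1. MCF10A.B2 is a human mammary epithelial line with a form of Her2 (ErbB2) that the crosslinker AP1510 activates. Cells of both groups were grown in DMEM/F12 with 5% horse serum, starved of serum for 3 h and given AP1510 for 15 min, so every value below is from cells with activated Her2. The methods call the shRNA tetracycline inducible and the control cells wild type, but the labels do not say whether the control cells carried it uninduced, and no array of a non-targeting shRNA was analysed. The series text speaks of cells from different tumors while the labels name the cell line, and neither says whether replicates were separate cultures. The p-values therefore measure the spread between these samples, which may be technical.

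IRFs are transcription factors that share a DNA-binding domain with conserved tryptophans and bind the core GAAA repeats of interferon-stimulated response elements. IRF3 and IRF7 are switched on by phosphorylation after viral nucleic acid is sensed and drive the interferon genes. IRF9 is part of the complex ISGF3, which carries the interferon signal to DNA, while IRF1 and IRF2 bind the same elements as an activator and, for the most part, as its antagonist. IRF4, IRF5 and IRF8 are best known from lymphoid and myeloid cells.

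The array measured the IRFs with oligonucleotides of 60 bases, and 3 of these are shown, that of the gene with the largest change and both of IRF3, since the latter lie side by side in the transcript. Letters are given 5′ to 3′ as the scanner files list them. Capitals in the IRF3 sequences mark the 5 bases that the probes share.
IRF7 (chr11:612643-612702, hg19, minus strand): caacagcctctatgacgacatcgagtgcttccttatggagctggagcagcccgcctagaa
IRF3, probe 1 (chr19:50164080-50165258, hg19, minus strand): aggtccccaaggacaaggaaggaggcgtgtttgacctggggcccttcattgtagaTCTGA
IRF3, probe 2 (chr19:50164025-50164084, hg19, minus strand): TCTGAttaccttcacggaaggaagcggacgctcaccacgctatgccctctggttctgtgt
The first IRF3 probe spans 1179 bases of the genome, so its match is interrupted by an intron, and the second lies within 60 contiguous bases. The other probes lie on chromosome 5 from 131819442 to 131819501 for IRF1, chromosome 6 from 411002 to 411061 for IRF4, chromosome 7 from 128589323 to 128589382 for IRF5, chromosome 16 from 85956052 to 85956111 for IRF8 and chromosome 14 from 24635500 to 24635559 for IRF9. For IRF2 the file places only 16 of the 60 bases, on chromosome 4 from 185308860 to 185308875.

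Promoters of IRF1 and IRF9 are shown next, because both genes rose and their sequences hold letters that interferon-activated factors are known to bind. They are RefSeq sequences of GRCh38.p14, the 250 bases before the transcription start, 5′ to 3′ on the gene's strand, and capitals mark the motifs found.
IRF1 (chr5:132490774-132491023, GRCh38.p14, minus strand): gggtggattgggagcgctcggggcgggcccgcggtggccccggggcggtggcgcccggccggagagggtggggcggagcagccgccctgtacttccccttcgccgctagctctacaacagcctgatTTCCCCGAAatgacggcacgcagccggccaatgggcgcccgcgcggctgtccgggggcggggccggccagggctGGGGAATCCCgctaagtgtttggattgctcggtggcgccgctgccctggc
IRF9 (chr14:24161015-24161264, GRCh38.p14, plus strand): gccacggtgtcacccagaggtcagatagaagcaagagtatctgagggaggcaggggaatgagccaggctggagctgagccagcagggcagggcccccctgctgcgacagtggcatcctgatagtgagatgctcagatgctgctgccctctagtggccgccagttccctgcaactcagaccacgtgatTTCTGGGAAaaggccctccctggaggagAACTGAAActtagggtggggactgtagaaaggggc
Each promoter was searched on both strands, over the 250 bases before and 50 after the start, for the gamma-activated site (GAS, TTCNNNGAA), the IRF site (AANNGAAA), the core of the interferon-stimulated response element (ISRE, the letters GAAA, NN and GAAA in a row, which contain those of the IRF site) and the NF-kB site. IRF1 held a GAS match that begins 124 bases before the start and an NF-kB match that begins 50 bases before it. IRF9 held a GAS match 63 bases and an IRF site 35 bases before the start. Of all 35116 promoters in the table, 7.66% held the GAS letters, 22.8% the IRF site, 3.57% the ISRE core and 5.91% the NF-kB site. The table held 9 promoters for 5 of the genes, also those of IRF4, IRF5 and IRF8. It held none for IRF2, IRF3 and IRF7, which rose too, so these could not be searched. In the promoters of IRF4, IRF5 and IRF8, the IRF site was found in 1 of the 4 of IRF5 and in both of IRF8, and the other motifs were not found. The IRF8 windows overlap, and the match TTTCAGTT is the same site in both. A match describes the letters only, and promoters were not assayed here.

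The array as a whole differed widely between the groups. PAK1 itself, the target of the shRNA, read 11.19 and 11.27 in normalized log2 intensity in control cells and 10.44 and 10.51 in PAK1 shRNA cells. The difference was -0.76 on the log2 scale (SE 0.08, limma adjusted p = 0.00013), or 59.2% of the control level. Between 78% and 82% of probes were well above background on an array. Of 27392 probes tested, 30.8% were higher and 32.8% lower in PAK1 shRNA cells, 63.5% in all, as called by limma where the Benjamini-Hochberg adjusted p was below 0.05. The fit to the background of the control arrays moved when spots of flagged local background were left out, and it was used without them. Local background was above 100 at 8 and 18 spots of the control arrays and at 0 spots of the others.

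Of the 9 IRF probes, 7 passed the filter on dim signal and all 7 were called, 6 higher and 1 lower, where 63.5% of all probes were called. These 7 were well above background on both control arrays, so none passed the filter through PAK1 shRNA cells alone. A rise of at least 2-fold was called for 4 of them, of which IRF2 lay below 2-fold with normexp fitted on all spots, against 8.61% of all probes, and a fall of that size for 0, against 8.94% of all probes. A plain test of each probe alone, which pools no spread across probes, could not be fitted to IRF7. Of the other 6 it called 4 higher (IRF1, IRF2, IRF9 and the second IRF3 probe) and 0 lower. It called 41.6% of the 26301 probes it could test. The arrays of the groups did not overlap in any of the 6 probes measured on all 4 arrays, which held for 82% of all probes. The 7 probes had a median log2 fold change of 1.29, and all probes tested had one of 0.0079. In bulk RNA a change in every cell and a change in the share of cells cannot be told apart. Levels of different probes are not compared, since probes differ in brightness.

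**Figure D1:**
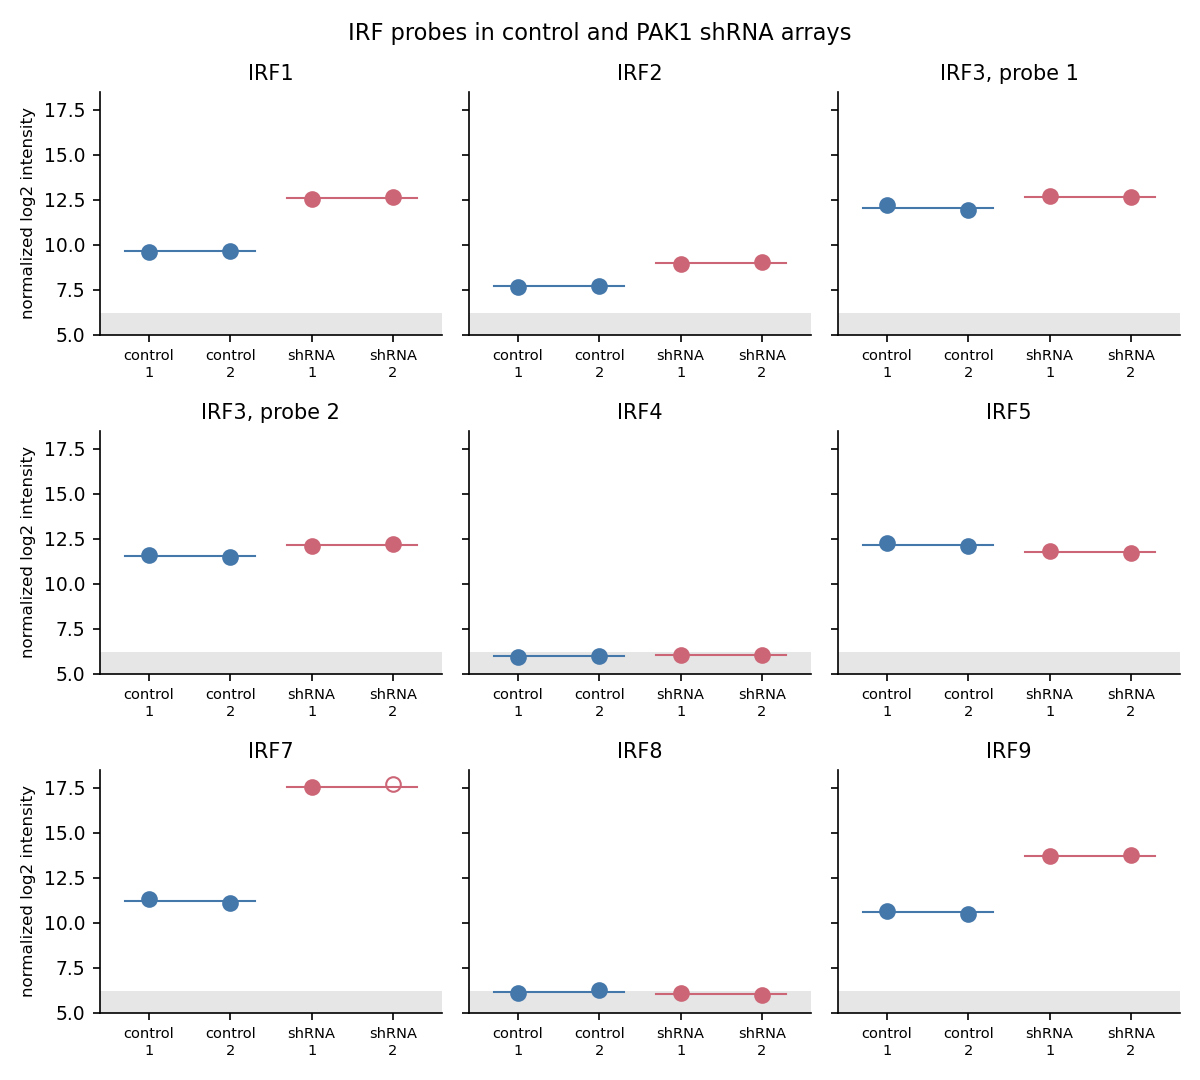
Normalized log2 intensity (y axis) of each IRF probe on each array (x axis), with control arrays in blue and PAK1 shRNA arrays in red. Lines are group means over the filled points, the open point is the IRF7 spot left out for a flag on its local background, and grey marks the range below 6.21, the highest of the 4 arrays' lowest signals well above background. IRF7, IRF9, IRF1 and IRF2 stand clearly higher on both PAK1 shRNA arrays, and IRF4 and IRF8 lie in or at the edge of the grey range.

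IRF7, the factor that amplifies the interferon response, had the largest change of the members. Its scanner signal was 3499 and 2344 in control cells and 162675 and 182895 in PAK1 shRNA cells. The bright spots were read from the scanner's low-gain scan and scaled up. The spot on PAK1 shRNA array 1 was not saturated, and saturation was not read for the spot on array 2, which was flagged. The spot on PAK1 shRNA array 2 was left out, because its local background of 34 was flagged as an outlier. The fit thus rests on normalized log2 intensities of 11.34 and 11.11 in control cells and 17.54 on PAK1 shRNA array 1. The log2 ratio of the group means was 6.31 (SE 0.13, limma adjusted p = 6.1e-07), or 79.6-fold, and 99.9% of all probes had a smaller value. With 1 array in that group, the SE and p rest on the spread of the control arrays and of other probes. With all flagged spots kept, a setting chosen after this was seen, the PAK1 shRNA arrays read 17.57 and 17.74, and the log2 ratio was 6.43 (SE 0.11, limma adjusted p = 1.9e-07). Both arrays lay more than 6 log2 units above both control arrays.

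IRF9, the DNA-binding subunit of ISGF3, rose as well. Its normalized log2 intensity was 10.67 and 10.49 in control cells and 13.70 and 13.77 in PAK1 shRNA cells. The group means were 10.58 ± 0.13 (SD, n = 2) and 13.74 ± 0.05 (SD, n = 2). The log2 ratio of the group means was 3.16 (SE 0.09, limma adjusted p = 5.2e-07), or 8.93-fold. A smaller log2 fold change was seen in 99.1% of all probes. The difference was far larger than the gap between arrays of a group.

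IRF1, an activator that interferon and NF-kB signals are known to induce, had normalized log2 intensities of 9.62 and 9.65 in control cells and 12.57 and 12.65 in PAK1 shRNA cells. The group means were 9.63 ± 0.02 (SD, n = 2) and 12.61 ± 0.05 (SD, n = 2). The log2 ratio of the group means was 2.97 (SE 0.07, limma adjusted p = 3.5e-07), or 7.85-fold, with a 95% confidence interval from 2.80 to 3.15. The interval for IRF9 ran from 2.95 to 3.37 and overlapped it. Replicates of IRF1 were nearly level in each group.

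IRF2, which competes with IRF1 for the same sites, rose too, but from a dim signal. Its scanner signal was 233 and 189 in control cells and 398 and 418 in PAK1 shRNA cells, with a local background between 40.5 and 44. The normalized log2 intensity was 7.68 and 7.69 in control cells and 8.93 and 9.03 in PAK1 shRNA cells. The log2 ratio of the group means was 1.29 (SE 0.08, limma adjusted p = 1.1e-05), or 2.45-fold. Among the background corrections the log2 fold change ran from 0.83 with normexp fitted on all spots to 1.45 with an offset of 16, and it was 1.71 with the processed signal less its 75th percentile, which replaces the normalization too. The IRF2 interval, from 1.11 to 1.48, lay below that of IRF1.

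IRF3, which cells hold ready in the cytoplasm until it is phosphorylated, changed little beside these. The first probe read 12.21 and 11.91 in control cells and 12.69 and 12.66 in PAK1 shRNA cells. The second probe read 11.58 and 11.48 in control cells and 12.09 and 12.20 in PAK1 shRNA cells. The adjacent probes gave log2 fold changes of 0.62 (standard error 0.11, adjusted p = 0.0021) and 0.61 (standard error 0.08, adjusted p = 0.00050 from limma). They differed by 0.0015 (95% confidence interval from -0.33 to 0.33, adjusted p = 0.996 from limma's diffSplice), where 36.7% of 9950 probes of genes with several probes differed from the others of their gene. The rise appeared after normalization. The scanner signals of the first probe, 6343 and 4063 in control cells and 5555 and 5475 in PAK1 shRNA cells, overlapped between the groups, and so did those of the second, 4115 and 2988 against 3658 and 3944. The median signal of all spots was 501 and 384 in control cells and 326 and 319 in PAK1 shRNA cells.

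IRF5, known from Toll-like receptor signalling in myeloid cells, was the member that fell. Its probe was bright in these epithelial cells, with scanner signals of 6601 and 4590 in control cells and 3036 and 2830 in PAK1 shRNA cells. The normalized log2 intensity was 12.27 and 12.09 in control cells and 11.83 and 11.73 in PAK1 shRNA cells. The log2 ratio of the group means was -0.39 (SE 0.09, limma adjusted p = 0.0072), with a 95% confidence interval from -0.61 to -0.18. The fall did not pass when each probe was tested alone with no pooled spread (Benjamini-Hochberg adjusted p = 0.106, against 0.0072 in limma). Of all probes tested, 51.5% had a smaller absolute change. The groups did not overlap before or after normalization. After normalization this held for 82% of 26301 probes. The median scanner signal of all spots was lower in PAK1 shRNA cells too, at 326 and 319 against 501 and 384.

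IRF4 and IRF8, factors of lymphocyte and myeloid development, were not well above background on any array. The scanner signal of IRF4 was 50.3 and 47.1 in control cells and 46.2 and 47.6 in PAK1 shRNA cells, with a local background between 41 and 46.5. The scanner signal of IRF8 was 54.1 and 54.1 in control cells and 50.1 and 49.9 in PAK1 shRNA cells, with a local background between 39 and 47. No fold is given here for either gene, and a change below the detectable level could not have been seen.

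**Figure D2:**
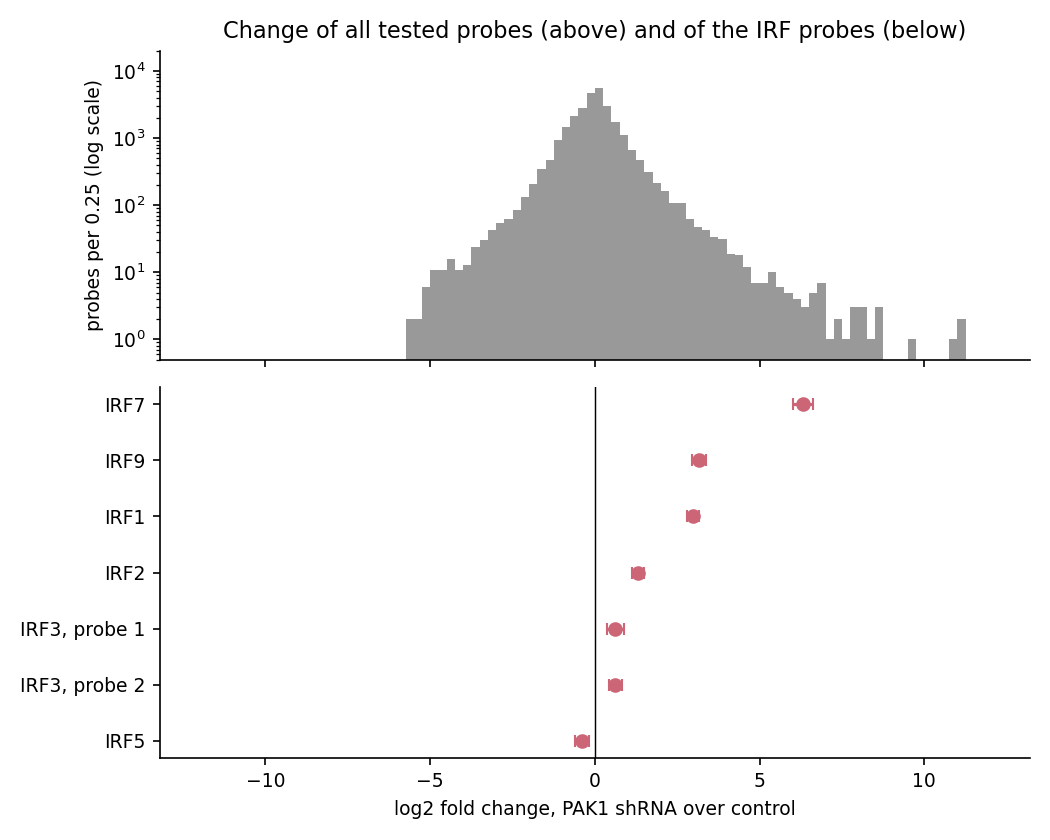
The log2 fold change of PAK1 shRNA over control cells (x axis) as the number of probes per bin on a log scale for all tested probes (top) and for each of the 7 tested IRF probes (bottom), where points are limma's estimates and bars their 95% confidence intervals. IRF7 at 6.31 lies in the sparse upper tail, IRF9 at 3.16 and IRF1 at 2.97 on the upper flank, and the IRF3 probes and IRF5 within the bulk.

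The changes of the members with a test kept their direction under every setting that gave a value. Over the settings run, the log2 fold change lay between 6.16 and 6.44 for IRF7, 2.96 and 3.27 for IRF9, 2.65 and 3.12 for IRF1, 0.47 and 0.77 for the first IRF3 probe, 0.54 and 0.67 for the second, and -0.49 and -0.30 for IRF5. Leaving out 1 array set both limits for the first IRF3 probe, at 0.47 without control array 2 and 0.77 without control array 1, over 1.5 times apart. The same arrays set both limits for IRF5, at -0.49 without control array 2 and -0.30 without control array 1, also over 1.5 times apart. IRF7 could not be fitted without PAK1 shRNA array 1, since no unflagged spot of that group was then left.

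**Figure D3:**
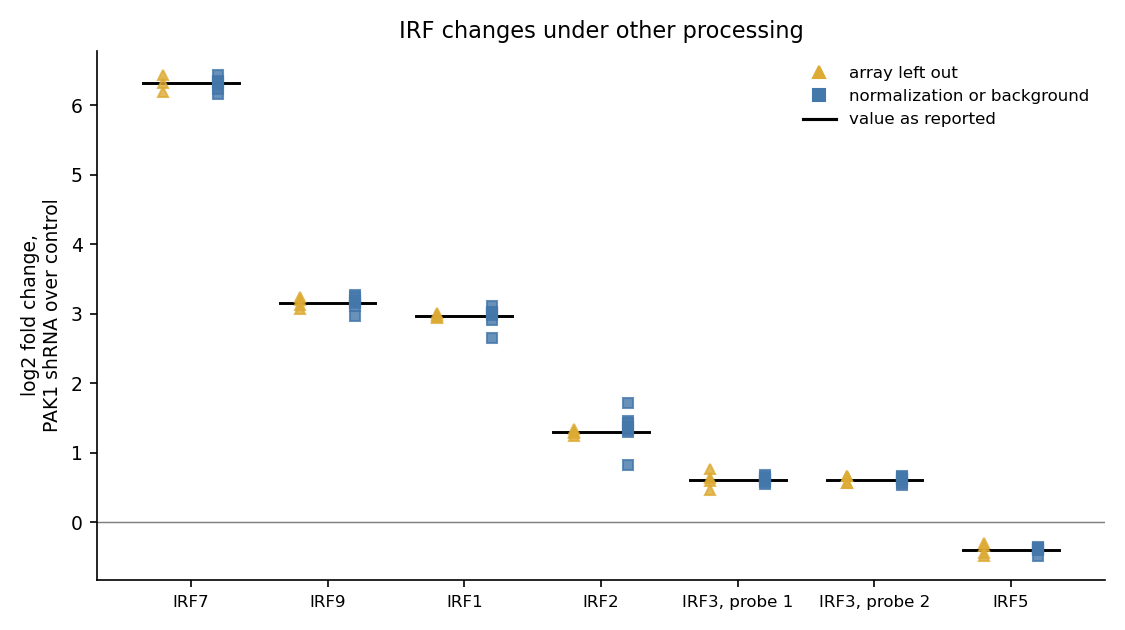
The log2 fold change of PAK1 shRNA over control cells (y axis) of each tested IRF probe (x axis) as reported (black line), with 1 array left out (triangles) and under other background corrections, normalizations or the authors' values (squares). No member crosses 0, and IRF2 spreads most in proportion to its size, from 0.83 to 1.71.

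The kinases and adaptors that carry signals to the IRFs were read from a list of 15 genes, which were all tested, and 10 rose, 3 fell and 2 did not pass, where 30.8% of all probes rose and 32.8% fell. The list median was 0.49. TBK1, a kinase that phosphorylates IRF3 and IRF7, read 11.24 and 11.20 in control cells and 12.31 and 12.35 in PAK1 shRNA cells, a log2 fold change of 1.11 (standard error 0.07). IKBKE, the related inducible kinase, read 8.08 and 8.27 in control cells and 10.05 and 10.14 in PAK1 shRNA cells, a log2 fold change of 1.92 (standard error 0.09). The largest rises were in MYD88, the adaptor of most Toll-like receptors, at 3.09 (standard error 0.09), and TMEM173, the adaptor STING of DNA sensing, at 2.13 (standard error 0.08). CHUK at -0.71, IRAK1 at -0.46 and MAVS, the adaptor of RNA helicases, at -0.31 fell, and MAVS was measured on 1 of the control arrays. IKBKB at -0.033 and IRAK4 at 0.16 did not pass.

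Of 11 partners and cofactors, 4 rose, 3 fell and 4 did not pass, with a median of -0.12. With 63.5% of all probes called, the number called was near the background. STAT2, a subunit of ISGF3 beside IRF9, had a log2 fold change of 3.68 with 1 PAK1 shRNA array left out for a flag, and 3.72 with that spot kept. BATF2, a basic leucine zipper factor that pairs with IRFs, rose by 7.34, from 7.40 and 7.48 to 14.71 and 14.85, and its relative BATF3 by 3.27. The BATF2 signal was dim in control cells, and how far its fold moves with the background correction was not examined. The acetyltransferase genes went opposite ways, EP300 at 0.52 and CREBBP at -0.81. The corepressor genes IRF2BPL at -0.50 and IRF2BP1 at -0.33 fell, while IRF2BP2 was at -0.13 and did not pass. SPI1, SPIB and BATF, partners of IRFs in blood cells, were at -0.12, -0.17 and 0.25 and did not pass.

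Of 4 ubiquitin ligase genes whose products act on IRF proteins, 3 rose and 1 fell, with a median of 1.47, where 30.8% of all probes rose and 32.8% fell. TRIM21, a ubiquitin ligase of IRF proteins, went from 8.51 and 8.51 to 11.36 and 11.38, a log2 fold change of 2.86 (standard error 0.07). RBCK1 rose by 2.29 and FBXW7 by 0.65 on the log2 scale. STUB1, a ligase that works with chaperones, fell by 0.29.

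Of 21 genes known as targets of IRFs, 20 were tested and all 20 rose, where 30.8% of all probes did, with a median of 5.01 and a range from 0.98 to 11.15. IFNB1 and CCL5 passed the filter through PAK1 shRNA cells alone, being well above background on 1 control array, and the other 18 had a median of 4.73. The list was drawn up with the rise of interferon-stimulated genes in these data known, so the count is not independent evidence. CXCL10, a chemokine of T cells, went from 6.45 and 6.57 to 17.29 and 18.04, a log2 fold change of 11.15 (standard error 0.22). RSAD2, the antiviral viperin, went from 7.11 and 6.99 to 17.87 and 18.26, a log2 fold change of 11.01 (standard error 0.13). The control values of CXCL10 lay near the lowest signals well above background on those arrays, 6.12 and 6.20, and those of RSAD2 were dim too. How far the size of either fold moves with the background correction was not examined. TAP1, a peptide transporter gene that IRF1 is known to bind, was not tested, since a spot of each group was flagged, and its log2 fold change was 3.88 with all flagged spots kept. The proteins of the IRFs and their binding to these genes were not measured.

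**Figure D4:**
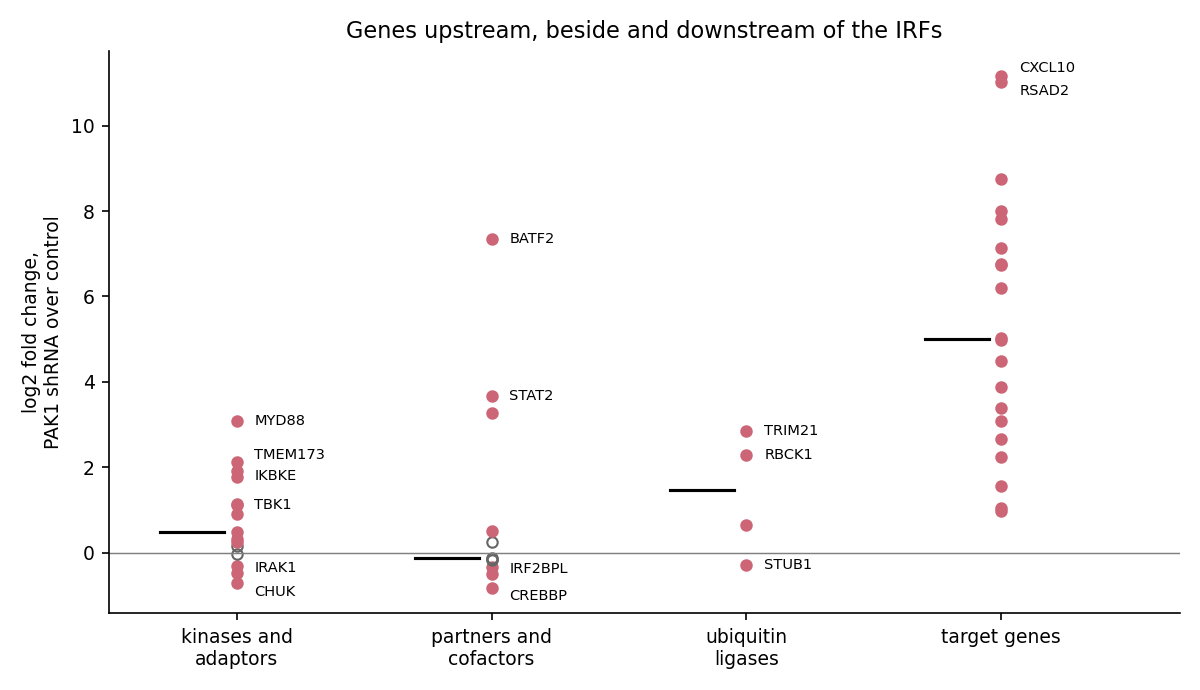
The log2 fold change of PAK1 shRNA over control cells (y axis) for each tested gene of 4 lists around the IRFs (x axis). Filled points passed an adjusted p of 0.05, open points did not, and the short black lines are list medians, 0.49, -0.12, 1.47 and 5.01 from left to right; the target genes all lie above 0.

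Markers of the cell types were read beside these values. All 6 epithelial markers were well above background on all 4 arrays, with KRT5 at -1.20, TP63 at -1.13, KRT14 at -0.98 and EGFR at -0.56, and CDH1 at 0.95 and KRT6A at 0.28. Of 9 immune cell markers 8 were tested and 4 rose, where 30.8% of all probes did, CD14 by 1.23 with 1 PAK1 shRNA array left out for a flag, CSF1R by 0.65, CD79A by 0.47 and ITGAM by 0.46 on the log2 scale. The pan-leukocyte gene PTPRC read 7.64 and 7.79 in control cells and 7.85 and 7.83 in PAK1 shRNA cells and did not pass, nor did MS4A1, CD3E and LILRA4, and CLEC4C was not well above background on any array. The summed linear intensity of the immune markers, over all spots, was between 26813 and 29289 in control cells and between 58283 and 61269 in PAK1 shRNA cells. Most of that sum was CD14, at 18998 and 18145 in control cells and 44679 and 48418 in PAK1 shRNA cells. The summed intensity of the epithelial markers was 260869 and 233932 in control cells and 181298 and 178927 in PAK1 shRNA cells. KRT5, the brightest of them in control cells, weighed most there, at 17.04 and 16.79 in normalized log2 intensity over all spots. In PAK1 shRNA cells KRT5 read 15.89 and 15.66. The part of these markers in the IRF values was not tested.

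The genes nearest to a member in pattern were sought among 19854 probes well above background on all 4 arrays, as the root mean square distance of values centred on each probe's mean. For IRF9 these were MMP19 at 0.027, C5orf56 at 0.037 and PCDH1 at 0.037. For IRF1 they were PML at 0.020, SP140L at 0.037 and TMEM229B at 0.038. For IRF2 they included C12orf28 and GSDMD, each at 0.013. IRF7 was not compared, because of its flagged spot. The likeness rests on 4 arrays and is a description.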

How the data were processed

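RNA of 4 samples of MCF10A.B2 cells was read on 1-colour Agilent arrays of 1 slide. The authors deposited scanner output of Agilent Feature Extraction 9.5.3.1, with an intensity for every spot, and a table of log2 values, which was used as an alternative. The study's methods name normexp background correction, quantile normalization and limma for the arrays, and an unpaired t-test for other data, which was run here as an alternative.

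Intensities (mean signal less the local background) were corrected with normexp, offset 50, whose parameters were fitted without spots of flagged local background. Flagged and control spots were dropped, arrays were quantile normalized, and spots of a probe were averaged. Fitted on all spots, the background mean of the control arrays was -666 and -740, against -9.2 and -12.1 without the flagged ones, and that fit is an alternative. A probe was tested if either group had it well above background on both its arrays. Each probe was fitted apart in limma 3.58.1 (lmFit, eBayes; R 4.3.3) and called at a Benjamini-Hochberg adjusted p under 0.05. Probes of 1 gene were compared with limma's diffSplice. The tests were checked on simulated data in which 200 of 26301 probes changed, far fewer than were called here. They recovered 69% of changes of 1 log2 unit and 3% of changes of 0.5, with 3 false calls each. With so few changed probes the adjusted p is harder to pass, so these rates do not carry over to the calls made here.

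Members and lists were chosen with earlier results of these data known. Genes named are every member, PAK1, the largest rises and falls of each list, up to 2 each way, STAT2, TBK1 and IKBKE, and the genes nearest in pattern. MAVS, IKBKB, IRAK4, BATF, BATF3, SPI1, SPIB, EP300, IRF2BP1, IRF2BP2, FBXW7, TAP1, IFNB1, CCL5 and the neighbour of IRF1 were named after their values were seen. A list gene with several probes was read from the brightest one tested. List genes were matched to the array's names by symbol or, from RefSeq (GRCh38.p14), by synonym, and all 66 matched, 1 of them under another symbol. A few other genes are not reported here. Alternatives covered the background correction, signal, normalization, filter, flags, probe rule, test, threshold, each array left out and the replicate block.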

Additional observations from a re-analysis of the deposited data

How the results depend on the processing

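No setting turned the direction of a tested IRF probe. Of the 128 values under other settings, 123 kept their side of the threshold and 5 no longer passed: the first IRF3 probe (adjusted p = 0.0973) and IRF5 (adjusted p = 0.106) under a plain t-test of each probe, which pools no spread across probes, and both IRF3 probes and IRF5 where a 2-fold change was asked as well. The cause was not tested for the t-test, while the 2-fold rule removes them by construction. Under the t-test 0 IRF probes were called lower and 4 higher, with 5219 of all probes higher and 5716 lower; with the 2-fold rule 0 IRF probes were lower and 4 higher, with 2359 and 2448 of all probes. IRF7 could not be fitted under the t-test or cyclic loess, for want of its flagged spot. For the same reason it did not pass a filter for signal well above background on all 4 arrays. Under cyclic loess and under that filter, 5 IRF probes were called higher and 1 lower. With the processed signal less its 75th percentile, 0 ubiquitin ligase genes were lower in place of 1; the cause was not tested. Median centring moved the median of all probes by 0.12. Without each array in turn, where the array left alone is taken to vary as the other group does, 7171 to 7772 probes were higher and 7671 to 8472 lower, with 5 to 6 IRF probes higher and 1 lower. The difference between the IRF3 probes then ranged from -0.098 to 0.10, reversed without control array 2 (-0.098) and without PAK1 shRNA array 1 (-0.066). With the replicate number as a block 8615 probes were higher and 9098 lower, IRF probes stayed at 6 and 1, and the IRF3 difference at 0.0015. Same-numbered arrays did not deviate together (r = 0.0077 across 26301 probes), and the numbers were not taken as pairs. A slide block could not be fitted with 1 slide. IRF4 and IRF8 are limited by signal over background and were tested only with no filter on dim probes. Their log2 fold changes there were 0.062 (limma adjusted p = 0.533) and -0.14 (limma adjusted p = 0.259). Such values at background are not read as the presence or absence of a change.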

Other observations

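C5orf56, one of the genes nearest to IRF9 in pattern, is a neighbour of IRF1. The RefSeq table of GRCh38.p14 lists it as CARINH and places it beside IRF1 without overlap. Its probes lie on the plus strand of chromosome 5 in hg19, from 131793054 to 131793113 and from 131796925 to 131796984, and the nearer one ends 22458 bases before the IRF1 probe, which lies on the minus strand. The first probe of C5orf56 read 9.67 and 9.49 in control cells and 12.62 and 12.71 in PAK1 shRNA cells, a log2 fold change of 3.09 (standard error 0.09, adjusted p = 6.1e-07 from limma). The second read 7.88 and 7.61 in control cells and 10.30 and 10.28 in PAK1 shRNA cells, a log2 fold change of 2.54 (standard error 0.10, adjusted p = 2.1e-06 from limma). IRF1 itself changed by 2.97. The gene was looked at after its value was seen.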
